A study of Mus musculus with 12 samples.

Results

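The genes described here are 10 genes known for the maintenance of spermatogonial stem cells: Gdnf, Gfra1, Ret, Etv5, Id4, Zbtb16, Sall4, Lin28a, Nanos3 and Nanos2. The rule that picks them uses gene symbols and no measured value, although the set was proposed with earlier results of these data known. All 10 are among the 20718 genes of the expression table. The study sequenced RNA of mouse testes after lentivirus injection, in 4 groups of 3 libraries. Male ICR mice (spelled IRC in the sample labels) received the virus in the testis at 4 weeks of age, were raised for 5 weeks more, were mated and were then killed. In the F0_5251KD group the virus had the LV3 backbone and carried 3 short hairpins directed at the long non-coding RNA lncRNA5251, as a mixture. The F0_3NC group received LV3 virus with a control hairpin. In the F0_5251OV group the full-length lncRNA5251 was carried by the LV5 backbone, and in the F0_5NC group the virus was LV5 alone. Every group, the controls included, had received a lentivirus, and no group without injection was analysed here. F0_5251KD is compared with F0_3NC and F0_5251OV with F0_5NC, and F0_3NC vs F0_5NC gives the difference between the control viruses. In that difference the backbone, the control hairpin of F0_3NC and any batch that goes with them cannot be told apart. Whether the libraries of a group stem from different animals is not in the labels, and a p-value thus reflects only the spread from library to library, which may be technical.

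In the seminiferous tubule, Sertoli cells and peritubular myoid cells secrete GDNF, a growth factor of the basal niche. It binds the co-receptor GFRA1 on undifferentiated spermatogonia, and the complex signals through the receptor tyrosine kinase RET to keep the stem cells renewing. ETV5 and ID4 act downstream in the germ cell nucleus, ZBTB16 (PLZF) and SALL4 are zinc finger factors of undifferentiated spermatogonia, and LIN28A, NANOS2 and NANOS3 are RNA-binding proteins of the same cells. These cells are a small share of an adult testis, so transcripts found only in them are few in RNA of the whole organ. Such bulk RNA does not show which cells gave the reads of a gene. Fewer cells of a type and less RNA per cell cannot be told apart in it either.

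The sequences shown first are those that were put into the testes and those in front of the genes at the top and the bottom of the order of levels. The hairpins were compared with the annotated transcripts of the 10 genes in both orientations and without gaps.
Control hairpin of F0_3NC: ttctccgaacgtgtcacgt
Knockdown hairpin 1: gctgggacttaatgtccttct
Knockdown hairpin 2: gcatgggcaattcaaacaaat
Knockdown hairpin 3: gcttattatgcatcgtaaacc
Each knockdown hairpin matched the transcript of Purb, a gene outside the set, with 0 mismatches. Against the 10 genes the closest ungapped match was hairpin 1 to Gdnf, with 5 mismatches over 21 bases. Every other pair of a hairpin and one of the 10 genes, the control hairpin included, had at least 6 mismatches.

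Promoter sequences came from RefSeq (GRCm38.p6), which gave 9 promoters for 7 of the 10 genes and none for Ret, Zbtb16 and Sall4. The 250 bases before the annotated start of Id4, the gene with the highest level, and of Nanos2, the gene with the lowest, are shown 5′ to 3′ with each CG dinucleotide in capitals.
Id4, chr13:48260866-48261115, plus strand: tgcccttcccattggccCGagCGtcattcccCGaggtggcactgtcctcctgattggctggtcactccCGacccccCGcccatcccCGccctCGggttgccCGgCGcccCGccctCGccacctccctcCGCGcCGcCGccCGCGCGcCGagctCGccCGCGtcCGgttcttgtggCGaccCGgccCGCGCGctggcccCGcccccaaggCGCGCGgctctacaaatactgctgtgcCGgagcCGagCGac
Nanos2, chr7:18987274-18987523, plus strand: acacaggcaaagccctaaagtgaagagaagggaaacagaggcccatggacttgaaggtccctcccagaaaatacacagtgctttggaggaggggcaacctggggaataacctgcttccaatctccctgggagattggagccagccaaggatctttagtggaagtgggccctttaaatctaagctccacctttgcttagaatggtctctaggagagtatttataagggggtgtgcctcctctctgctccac
The Id4 stretch holds 35 CG dinucleotides and is 75.6% G and C. The Nanos2 stretch holds 0 and is 50.8% G and C, where the median over all 32851 promoters of this length is 6 CG dinucleotides. The ETS-type motif CCGGAAG was found on neither strand of the 9 promoters (each 300 bases, to 50 after the start), while 8.9% of all promoters hold it. The E-box CACGTG was likewise in 0 of the 9 and in 7.2% of all promoters. Over these 300 bases the CG dinucleotides numbered 39 for Id4, 37 and 19 for Etv5, 12 for Gfra1 and 10 for Lin28a. They numbered 3 for Nanos3, 11 and 22 for Gdnf and 0 for Nanos2. These counts describe the letters of these windows and say nothing of the factors that bind there. Whether they go with the level of a gene was not tested.

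Libraries held between 15431383 and 16355720 estimated counts. Levels are given as CPM (counts brought to a common total with TMM scaling factors) where one gene is compared between libraries, and as RPKM (reads scaled by transcript length and library total, as deposited) where genes are compared with each other. Of 20718 genes, 16297 passed the filter on low counts and were tested in 1 fit of all 12 libraries with edgeR's quasi-likelihood test, two-sided, with Benjamini-Hochberg adjustment over those genes and a threshold of 0.05. The filter kept 9 of the 10 genes and left out Nanos2. Marker genes of the labelled tissue were present in every library: Prm1 of elongated spermatids lay between 2615.71 and 3436.24 CPM, Sycp3 of spermatocytes between 172.27 and 223.13 CPM and Sox9 of Sertoli cells between 9.24 and 18.88 CPM. Markers of the epididymis, the duct beside the testis, differed most between libraries. Of 11 such genes, 9 were in the table and 5 passed the filter. Their summed level was 5.54 to 12 CPM in F0_3NC, 2.48 to 5.19 CPM in F0_5251KD, 19.1 to 127 CPM in F0_5NC and 5.75 to 89.9 CPM in F0_5251OV, and its part in the results below was not tested.

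Id4 was the most abundant of the 10 genes and Nanos2 the least. Id4 was at 16.75 ± 1.07 RPKM (SD over the 12 libraries, also for the genes that follow), which ranks it 4934th among the 20718 genes. Etv5 followed at 5.17 ± 0.42 RPKM and Gfra1 at 2.8 ± 0.31 RPKM. The ranges of these first 3 genes over the libraries did not overlap with each other or with the gene next in order. Lin28a was next at 1.19 ± 0.17 RPKM and lay above Zbtb16, at 0.87 ± 0.15 RPKM, in 12 of 12 libraries, although their ranges overlapped. Zbtb16, Nanos3 (0.71 ± 0.31 RPKM) and Sall4 (0.62 ± 0.17 RPKM) were not separated by their spread: Zbtb16 exceeded Nanos3 in 9 of 12 libraries, and Nanos3 exceeded Sall4 in 5 of 12. Gdnf was at 0.42 ± 0.10 RPKM, below Sall4 in 10 of 12 libraries, and Ret was at 0.30 ± 0.08 RPKM, below Gdnf in 11 of 12. Nanos2 was at 0.06 ± 0.07 RPKM and below Ret in 12 of 12. The co-receptor Gfra1 thus stood above its partner Ret in every library, by 4.63 to 14.27 times in RPKM. These orders rest on the transcript lengths that the authors used.

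**Figure D1:**
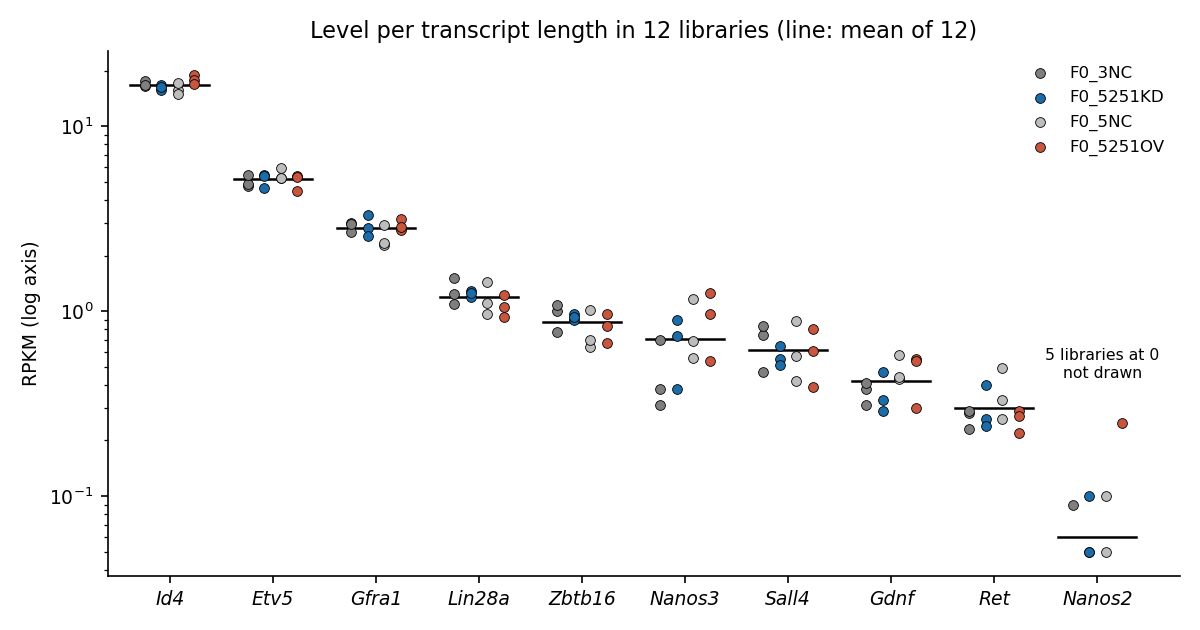
RPKM of each of the 10 genes (log axis) in the 12 libraries, coloured by group, with a line at the mean. Id4, Etv5 and Gfra1 form separate steps, Lin28a to Ret overlap with their neighbours, and Nanos2 was at 0 in 5 libraries, which are not drawn.

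The summed level of the 10 genes lay between 68.05 CPM (F0_5NC replicate 2) and 78.85 CPM (F0_5251OV replicate 1). Id4 and Etv5 together made up between 57.1% and 63.2% of that sum in every library. How far single genes varied followed their number of reads. The mean count per library ran from 402 for Id4 down to 23.2 for Gdnf, 8.33 for Nanos3 and 1.17 for Nanos2. The coefficient of variation within groups was 4.5% for Id4, where counting alone gives 4.99%, and 21.4% for Gdnf, where counting gives 20.7%. As a ratio to counting it was largest for Gfra1, at 11.6% against 7.25%, among the 9 genes that passed the filter.

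**Figure D2:**
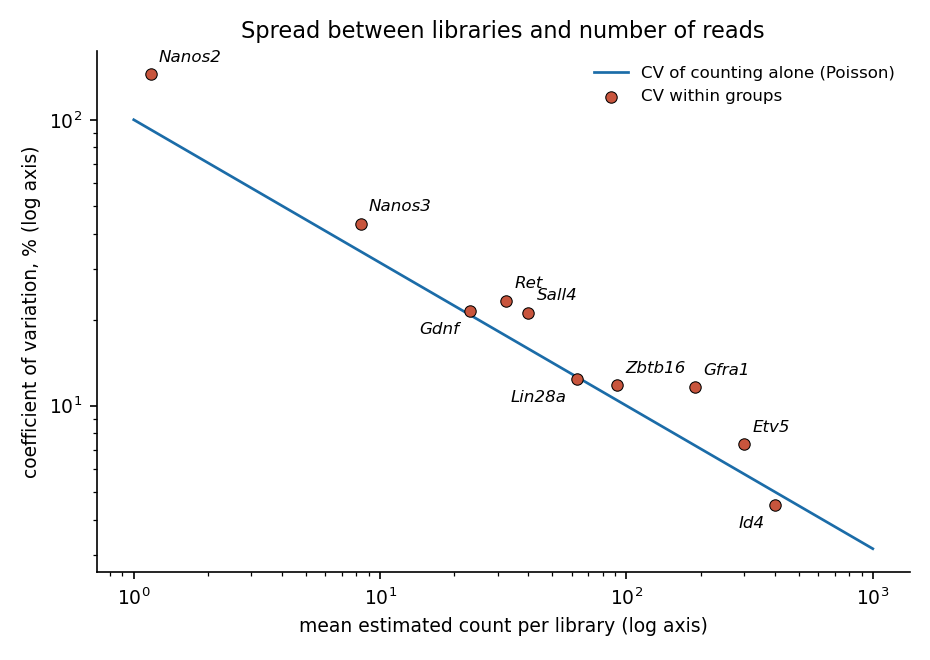
Coefficient of variation of CPM within groups (points, log axis) against the mean estimated count per library (log axis), with the line that counting alone gives. Mean counts run from 1.17 for Nanos2 to 402 for Id4. As a ratio, Gfra1 (11.6% against 7.25%) and Nanos2 (144% against 92.6%) stand furthest above the line, and the other genes lie nearer to it.

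No gene of the set was called in any comparison. In F0_5251KD vs F0_3NC, 0 of the 9 tested genes passed the threshold, where 0.0245% of all genes tested did, and 0 had an unadjusted p under 0.05, where 4.74% of all genes did. In F0_5251OV vs F0_5NC, 0 passed, where 0% of all genes did, and Id4 alone had an unadjusted p under 0.05, where 8.77% of all genes did. Between the control viruses 0 passed, where 0.331% of all genes did, and 0 had an unadjusted p under 0.05, where 11.9% of all genes did. The difference between the knockdown and the overexpression effect called 0 of the 9, where 0% of all genes were called, and again Id4 alone had an unadjusted p under 0.05, where 11.3% of all genes did. DESeq2 called 0 of the 10 genes in each of the 4 comparisons, and every other alternative called 0 of those it tested. A gene to which DESeq2 gave no adjusted p, such as Nanos3 for the difference of effects, counts here as not called and could not have been called.

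**Figure D3:**
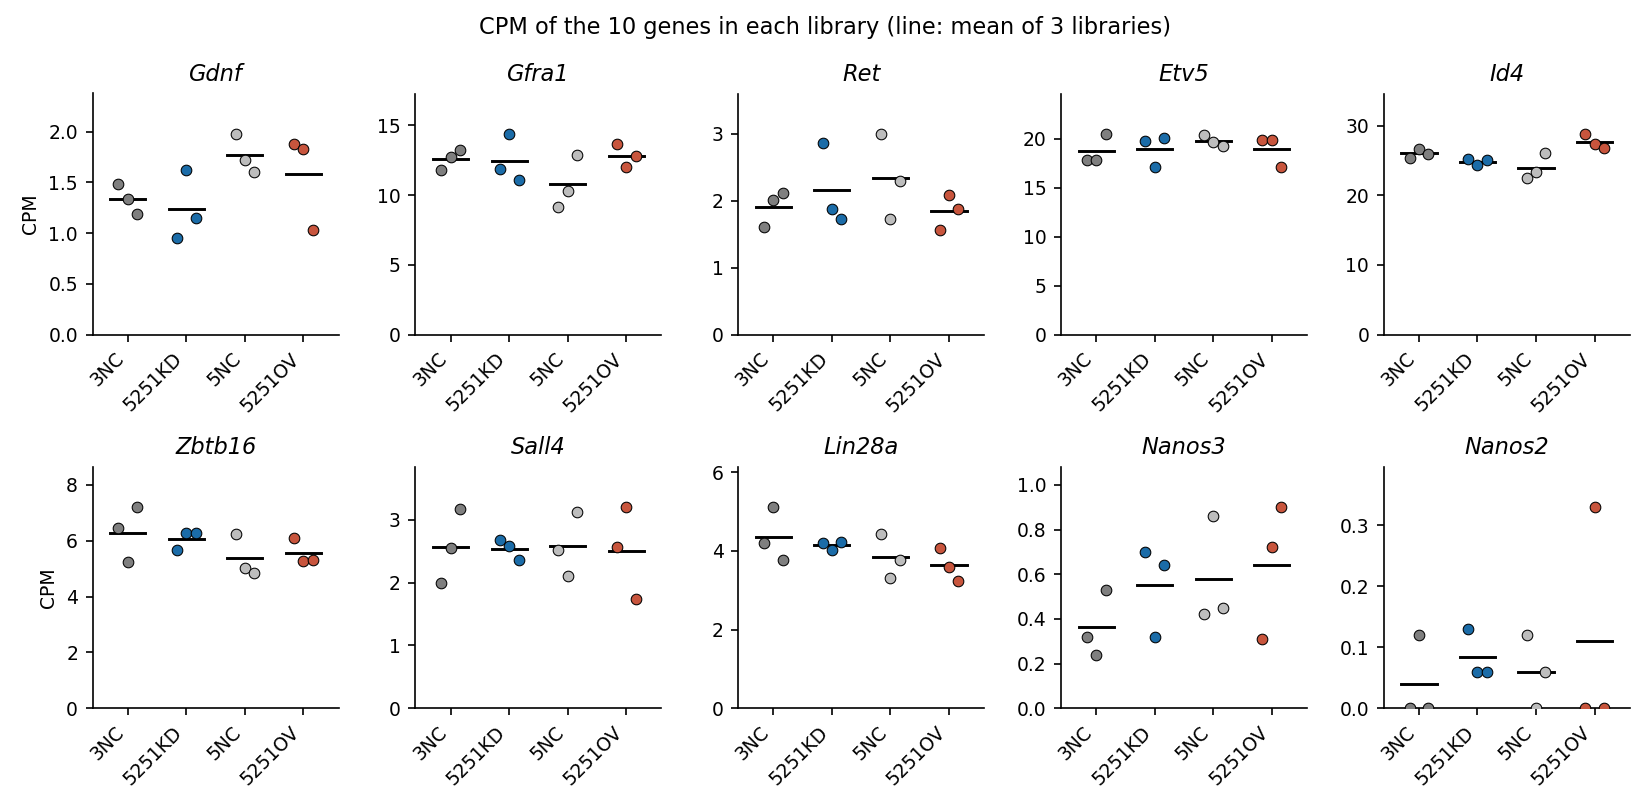
CPM of the 10 genes in each library (axes from 0), with lines at the mean of 3 libraries and the prefix F0_ left off the group names. Id4 is the gene whose F0_5251OV libraries all lie above its F0_5NC libraries, and the Gdnf libraries of F0_3NC all lie below those of F0_5NC.

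Groups of 3 libraries failed to overlap in 1 of the 9 genes in each comparison of groups. This was Id4 in F0_5251KD vs F0_3NC, where 11.8% of all genes tested had groups that do not overlap, and Id4 again in F0_5251OV vs F0_5NC, where 13.9% did. Between the controls it was Gdnf, where 17.0% of all genes did. The counts of members are thus near what all genes show.

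Gdnf encodes the ligand of the niche. It was at 1.48, 1.34 and 1.19 CPM in F0_3NC and at 0.95, 1.62 and 1.15 CPM in F0_5251KD. In F0_5NC it was at 1.98, 1.72 and 1.60 CPM and in F0_5251OV at 1.88, 1.83 and 1.03 CPM. Both virus groups overlapped with their controls, while every F0_3NC library lay below every F0_5NC library. The log2 fold change was -0.11 (SE 0.295, 95% interval -0.74 to 0.53, adjusted p 0.957) for knockdown and -0.16 (SE 0.279, -0.76 to 0.44, adjusted p 0.876) for overexpression. Between the controls it was -0.40 (SE 0.284, -1.01 to 0.21, adjusted p 0.567). With 15 to 33 reads of Gdnf per library, a change of up to 1.44-fold upwards or to 0.60 of the control level by the knockdown virus lies within the interval. Sertoli cell markers, from one source of GDNF, were lower in F0_3NC than in F0_5NC in 15 of 15 genes (median -0.25 on the log2 scale, 0 called), with a summed level of 933 to 1274 against 1248 to 1765 CPM, and none of them was at 0 in any library. An unadjusted p under 0.05 was found for 6 of these 15 markers, all 6 of them lower, where 11.9% of all genes had one. Among 8 peritubular smooth muscle markers, from the other source, 4 had one, of which 3 were lower and 1 higher. Of other somatic markers, endothelial ones were lower in F0_3NC in 8 of 8 genes (median -0.14), macrophage ones in 8 of 10 (median -0.33) and Leydig ones in 5 of 8 (median -0.08). The part of any of these lists in the Gdnf values was not tested.

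Gfra1 encodes the co-receptor that gives GDNF its hold on the cell surface. It was at 11.79, 12.71 and 13.21 CPM in F0_3NC and at 11.88, 14.39 and 11.05 CPM in F0_5251KD. In F0_5NC it was at 9.11, 10.31 and 12.86 CPM and in F0_5251OV at 13.66, 12.01 and 12.79 CPM. The groups overlapped in each comparison, and the lowest value of the 12 was that of F0_5NC replicate 1. The log2 fold change was -0.02 (SE 0.14, -0.32 to 0.29, adjusted p 0.986) for knockdown and 0.25 (SE 0.141, -0.05 to 0.56, adjusted p 0.604) for overexpression. With 1 library left out the latter ran from 0.14 to 0.41, and the 0.14 was without F0_5NC replicate 1 (adjusted p 0.987). The F0_3NC vs F0_5NC difference of Gfra1 was 0.23 (SE 0.141, adjusted p 0.523), and that library belongs to both comparisons. Without it this difference was 0.11, and without F0_5NC replicate 3 it was 0.38.

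Ret encodes the tyrosine kinase that carries the signal of the GDNF and GFRA1 complex into the cell. Its levels were 1.61, 2.01 and 2.11 CPM in F0_3NC and 2.86, 1.88 and 1.72 CPM in F0_5251KD. They were 3.00, 1.72 and 2.30 CPM in F0_5NC and 1.57, 2.09 and 1.87 CPM in F0_5251OV. Groups overlapped throughout, with the 2 highest values in F0_5NC replicate 1 and F0_5251KD replicate 1. The log2 fold change was 0.17 (SE 0.27, -0.41 to 0.76, adjusted p 0.924) for the knockdown and -0.35 (SE 0.269, -0.93 to 0.23, adjusted p 0.705) for the overexpression virus. Without F0_5251KD replicate 1 the knockdown value of Ret was -0.09, and without F0_5NC replicate 1 the overexpression value was -0.13 (adjusted p 0.987). The direction of Ret in the knockdown comparison therefore rests on 1 library. Its overexpression value ran from -0.53 to -0.13 with each library left out in turn.

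Etv5, an ETS factor whose transcript is induced by GDNF in cultured stem cells, was at 17.85, 17.88 and 20.54 CPM in F0_3NC, 19.76, 17.12 and 20.05 CPM in F0_5251KD, 20.38, 19.69 and 19.32 CPM in F0_5NC, and 19.87, 19.90 and 17.12 CPM in F0_5251OV. The groups overlapped, and their means differed by at most 1.06 times. The log2 fold change was 0.02 (SE 0.105, -0.21 to 0.24, adjusted p 0.98) for knockdown, -0.06 (SE 0.105, -0.29 to 0.16, adjusted p 0.873) for overexpression and -0.08 (SE 0.105, -0.30 to 0.15, adjusted p 0.765) between the controls. For Etv5 a change beyond 1.18-fold in either direction lies outside the knockdown interval, and one beyond 1.22-fold outside the overexpression interval.

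Id4, an inhibitor of DNA binding that marks stem cells among the undifferentiated spermatogonia, had the smallest p of the set in the overexpression comparison. It was at 22.47, 23.32 and 26.10 CPM in F0_5NC and at 28.83, 27.41 and 26.75 CPM in F0_5251OV, so that the lowest F0_5251OV library was only just above the highest of F0_5NC. In F0_3NC it was at 25.39, 26.64 and 25.96 CPM and in F0_5251KD at 25.16, 24.31 and 25.04 CPM. All 3 F0_5251KD libraries lay below all 3 of F0_3NC, by a small distance. The log2 fold change of Id4 was 0.21 (SE 0.0866, 95% interval 0.02 to 0.39, unadjusted p 0.0318, adjusted p 0.552 by edgeR) in F0_5251OV vs F0_5NC, which is 1.15-fold. It was -0.07 (SE 0.0866, -0.25 to 0.12, adjusted p 0.913) for knockdown and 0.12 (SE 0.0867, -0.07 to 0.30, adjusted p 0.581) between the controls. The difference of the knockdown and overexpression effects on Id4 was -0.27 (SE 0.122, -0.54 to -0.01, unadjusted p 0.0434, adjusted p 0.439). By p, Id4 ranked 928th of the 16297 genes tested in the overexpression comparison. Markers of round spermatids were higher in F0_5251OV than in F0_5NC in 10 of 10 genes (median 0.09, 0 called, summed 1649 to 1900 against 1441 to 1809 CPM). Sertoli cell markers were lower in 14 of 15 (median -0.21, 0 called, summed 1034 to 1223 against 1248 to 1765 CPM). Lower as well were Leydig cell markers in 8 of 8 genes (median -0.22), endothelial markers in 8 of 8 (median -0.18) and macrophage markers in 9 of 10 (median -0.38). Among the F0_5NC libraries, replicate 1 had the lowest Id4 level and the highest Sertoli sum (1765 against 1302 and 1248 CPM). Its round spermatid sum was the lowest (1441 against 1809 and 1722 CPM). Its Leydig, macrophage and endothelial sums were the highest of the group (3094, 164 and 54.8 CPM). For round spermatids the other groups ran the other way. The library with the highest Id4 level of its group held the lowest sum in F0_5251OV (replicate 1, 1649 CPM) and in F0_3NC (replicate 2, 1618 CPM). In F0_5251KD the library with the lowest Id4 level held the highest sum (replicate 2, 1846 CPM). Without F0_5NC replicate 1 the overexpression value of Id4 was 0.16 (adjusted p 0.987). No marker of the round spermatid or Sertoli list was at 0, and the part of any of these lists in the Id4 values was not tested.

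**Figure D4:**
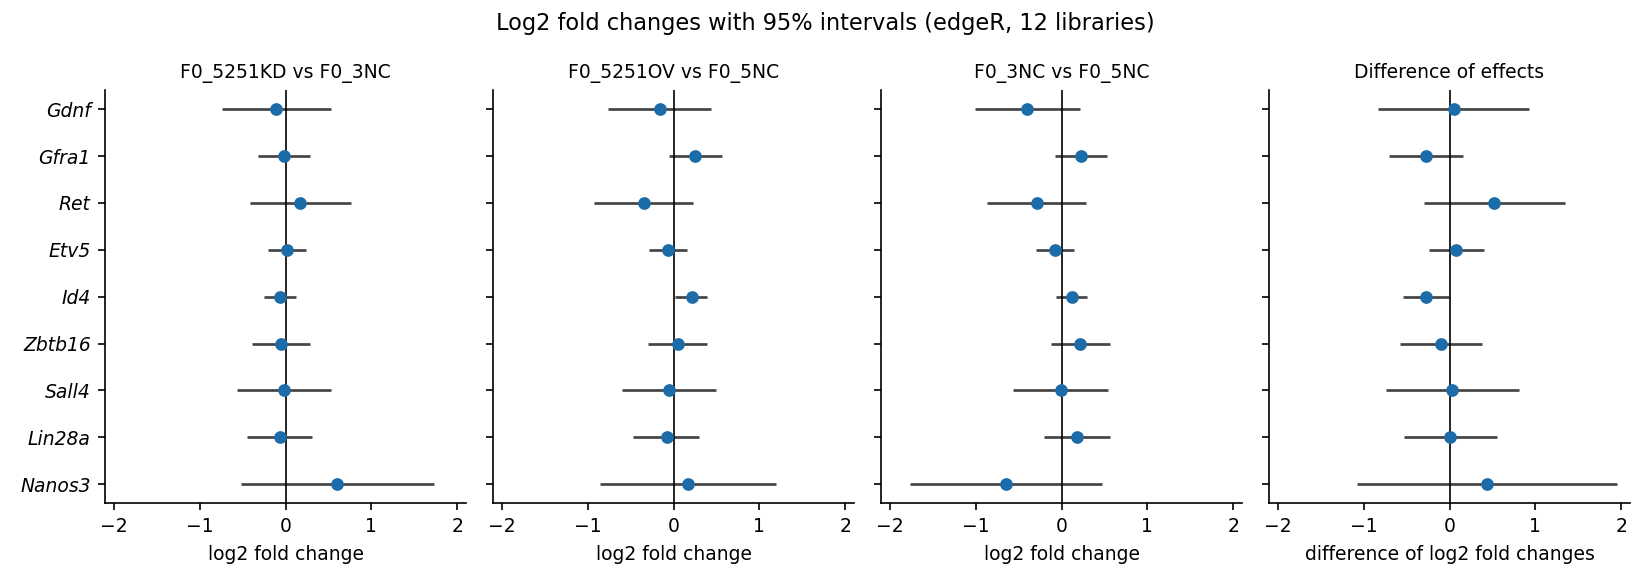
Log2 fold changes (points) with 95% intervals (lines) of the 9 tested genes in 3 comparisons of groups and in the difference of the knockdown and overexpression effects. The intervals include 0 except those of Id4 for overexpression (0.02 to 0.39) and for the difference of effects (-0.54 to -0.01), neither of which passed the threshold after adjustment.

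Zbtb16 (PLZF) is a transcriptional repressor needed for the upkeep of the stem cell pool. It was at 6.44, 5.23 and 7.20 CPM in F0_3NC, 5.66, 6.29 and 6.26 CPM in F0_5251KD, 6.23, 5.02 and 4.86 CPM in F0_5NC, and 6.08, 5.29 and 5.30 CPM in F0_5251OV. All pairs of groups overlapped. The log2 fold change was -0.05 (SE 0.157, -0.39 to 0.29, adjusted p 0.962) for knockdown and 0.05 (SE 0.159, -0.30 to 0.39, adjusted p 0.943) for overexpression. Sall4, a zinc finger factor of undifferentiated and early differentiating spermatogonia, ranged from 1.74 CPM in F0_5251OV replicate 3 to 3.20 CPM in F0_5251OV replicate 2, so both ends of its range fell in a single group. The mean of F0_3NC was 2.57 ± 0.59 CPM, that of F0_5251KD 2.54 ± 0.16 CPM, that of F0_5NC 2.59 ± 0.51 CPM and that of F0_5251OV 2.50 ± 0.73 CPM (SD, n = 3). These means of Sall4 differed by at most 1.03 times, less than the spread within any group. Its log2 fold change was -0.02 (SE 0.254, -0.56 to 0.53, adjusted p 0.991) for knockdown and -0.05 (SE 0.254, -0.60 to 0.50, adjusted p 0.963) for overexpression.

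Lin28a encodes an RNA-binding protein that blocks the maturation of let-7 microRNAs. It was at 4.19, 5.11 and 3.77 CPM in F0_3NC, 4.19, 4.02 and 4.22 CPM in F0_5251KD, 4.43, 3.30 and 3.77 CPM in F0_5NC, and 4.07, 3.59 and 3.23 CPM in F0_5251OV. The groups overlapped, and the log2 fold change was -0.07 (SE 0.176, -0.45 to 0.31, adjusted p 0.95) for knockdown and -0.08 (SE 0.179, -0.47 to 0.30, adjusted p 0.909) for overexpression. Nanos3, a translational repressor of spermatogonia, had 4 to 14 counts per library. Its levels were 0.32, 0.24 and 0.53 CPM in F0_3NC, 0.70, 0.32 and 0.64 CPM in F0_5251KD, 0.42, 0.86 and 0.45 CPM in F0_5NC, and 0.31, 0.72 and 0.90 CPM in F0_5251OV. Nanos3 had the largest fitted fold change for knockdown, 0.60 on the log2 scale (SE 0.521, -0.52 to 1.73, adjusted p 0.897), and the widest interval, which reaches 3.31-fold. With 1 library left out it ran from 0.38 (without F0_3NC replicate 2) to 0.96 (without F0_3NC replicate 3), and on log2(RPKM + 1) it was 0.19. For overexpression its log2 fold change was 0.17 (SE 0.475, -0.86 to 1.19, adjusted p 0.931).

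Nanos2, whose protein holds male germ cells in the stem cell state, gave 14 counts in all 12 libraries together. The F0_3NC libraries held 0, 2 and 0 counts and the F0_5251KD libraries 2, 1 and 1. The F0_5NC libraries held 2, 0 and 1 counts and the F0_5251OV libraries 0, 5 and 0. It was detected in 7 libraries. A count of 0 allows a level of up to 0.188 to 0.198 CPM (3 counts of the library's total, counting error only). The group sums of 2, 4, 3 and 5 counts, in the same order, allow no comparison between groups.

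The width of the intervals sets what these libraries could show. In F0_5251KD vs F0_3NC, the whole 95% interval lay within 1.5-fold in either direction for 6 of the 9 genes (Gfra1, Id4, Zbtb16, Etv5, Lin28a and Sall4) and within 2-fold for 8, all but Nanos3. In F0_5251OV vs F0_5NC it lay within 1.5-fold for 5 (Gfra1, Id4, Zbtb16, Etv5 and Lin28a) and within 2-fold for 8, again all but Nanos3. For the difference of the effects it lay within 1.5-fold for 4 genes (Id4, Zbtb16, Etv5 and Lin28a). Of the 9 genes, 3 were higher and 6 lower in F0_5251KD, with a median log2 fold change of -0.02, and 4 were higher and 5 lower in F0_5251OV, with a median of -0.05. Over all genes tested the medians were -0.00448 and -0.00201, and between the controls the 9 genes had a median of -0.01.

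Other genes of the GDNF pathway were described by lists. Of 11 ligands and receptors of the GDNF family, 8 were tested, 3 of them members of the set, and 0 were called in any comparison. The smallest p for knockdown was that of Nrtn (neurturin), another ligand of the family, at 1.92 ± 0.41 CPM in F0_3NC and 2.71 ± 1.18 CPM in F0_5251KD (log2 fold change 0.50, SE 0.344, adjusted p 0.897). For overexpression it was Gfra1, given above. Of 28 proteins that carry RET signals inside the cell, 26 were tested and 0 were called, with medians of 0.02 for knockdown and -0.02 for overexpression. The leading genes were Akt1, a kinase of the survival arm, at 0.33 (SE 0.153, adjusted p 0.897) for knockdown, and Fyn, a SRC-family kinase, at -0.28 (SE 0.11, adjusted p 0.552) for overexpression.

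Of 10 transcription factors listed as responsive to GDNF, 9 were tested, Etv5 and Id4 among them, and the only call was Egr2, an early growth response factor, in the comparison of controls. The F0_3NC libraries held 4.95 ± 0.57 CPM of Egr2 (SD, n = 3) and the F0_5NC libraries 0.56 ± 0.30 CPM. The edgeR log2 fold change was 3.11, with an SE of 0.344 and an adjusted p of 0.00062. In F0_5251KD it was at 11.48 ± 2.73 CPM, 1.21 above F0_3NC on the log2 scale (SE 0.257, adjusted p 0.363). Egr2 is also one of 20 immediate early genes. Of these, 9 were called higher in F0_3NC than in F0_5NC, where 0.331% of all genes were called. Another count of 4 were called higher in F0_5251KD than in F0_3NC, and these were the only 4 genes called there (0.0245% of all genes). No other of the 9 factors was called. For overexpression the leading factor was Lhx1, at 3.21 ± 0.45 CPM in F0_5NC and 1.77 ± 0.59 CPM in F0_5251OV (log2 fold change -0.85, SE 0.26, adjusted p 0.526).

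**Figure D5:**
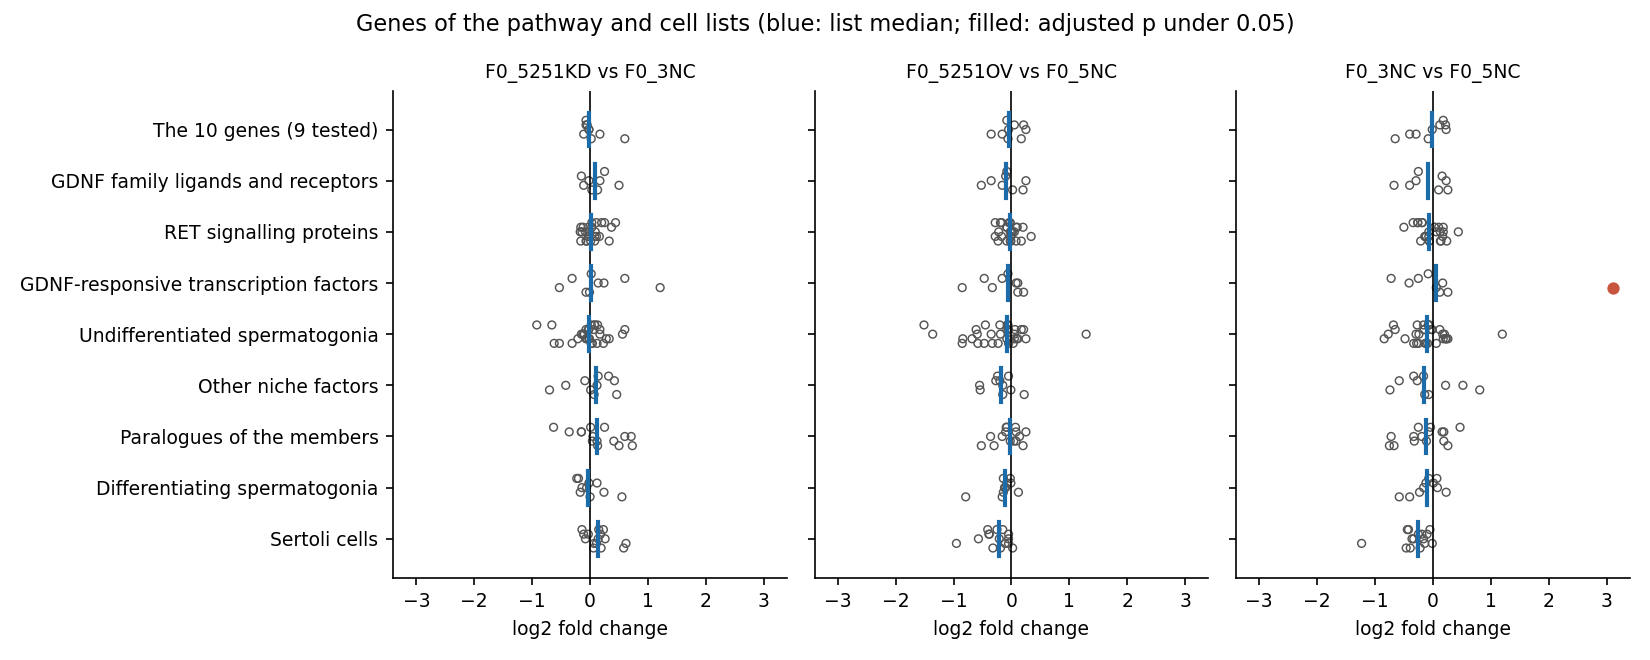
Log2 fold changes of the genes in each list (open circles), with the list median as a blue bar and genes past the threshold filled. Over the lists drawn the medians lie between -0.25 and 0.14, and the only filled point is Egr2 in F0_3NC vs F0_5NC, at 3.11.

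The wider list of undifferentiated spermatogonia has 37 genes, of which 32 were tested, 8 of them members of the set, and 0 were called in any comparison. For knockdown, 15 were higher and 17 lower (median -0.01), and 0 had an unadjusted p under 0.05. For overexpression, 10 were higher and 22 lower (median -0.08), and 9 of the 32, or 28.1%, had an unadjusted p under 0.05, of which 7 were lower and 2 higher, where 8.77% of all genes had one. Egr4, an early growth response factor, led that list at 5.62 ± 0.29 CPM in F0_5NC and 3.13 ± 0.43 CPM in F0_5251OV (log2 fold change -0.84, SE 0.202, adjusted p 0.447), while Id4 was one of the 2 that were higher. The difference of effects for Egr4 was 1.18 (SE 0.284, adjusted p 0.352). Between the controls 4 of the 32 genes (12.5%) had an unadjusted p under 0.05, where 11.9% of all genes did. Egr4, Pou5f1 and Eomes had one there and for overexpression. Mean Pou5f1 was 3.43 CPM in F0_5NC and 1.91, 2.33 and 2.14 CPM in F0_3NC, F0_5251KD and F0_5251OV. Shisa6 and Thy1, also among the 9, had means under 1 CPM in every group. The summed level of the list was 388 to 415 CPM in F0_5NC and 357 to 411 CPM in F0_5251OV. Of 10 differentiating spermatogonia genes, all tested, 0 were called. Among those, Kit, the receptor that marks the step to differentiation, had a mean of 26.70 ± 1.10 CPM for F0_3NC and of 39.06 ± 6.65 CPM for F0_5251KD (log2 fold change 0.55, SE 0.201, adjusted p 0.897). Its mean was 35.25 ± 10.20 CPM for F0_5NC and 31.61 ± 6.22 CPM for F0_5251OV, so F0_3NC was the lowest group. Kit also had the smallest p of that list between the controls.

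Of 15 other niche factors, 10 were tested and 0 were called. Kitl, the ligand of KIT, had the smallest p for knockdown, at 33.40 ± 9.15 CPM in F0_3NC and 20.52 ± 5.95 CPM in F0_5251KD (log2 fold change -0.70, SE 0.252, adjusted p 0.897). In F0_5NC Kitl was at 19.09 ± 0.65 CPM and in F0_5251OV at 18.88 ± 6.75 CPM, so F0_3NC was its highest group. Kitl also had the smallest p of this list between the controls. Csf1, a macrophage growth factor that also acts on stem cells, had the smallest p for overexpression. It was at 9.29 ± 2.13 CPM in F0_5NC and 6.37 ± 0.64 CPM in F0_5251OV (-0.55, SE 0.206, adjusted p 0.552). The peritubular smooth muscle markers were lower in F0_5251OV in 7 of 8 genes (median -0.42), and 0 were called. Of these, 6 had an unadjusted p under 0.05, where 8.77% of all genes had one. Their summed level was 351 to 398 CPM in F0_5251OV and 361 to 404 CPM in F0_5NC. Between the controls 4 of the 8 markers had such a p (median of the list -0.22), where 11.9% of all genes did. Paralogues of the set gave 0 calls among 15 tested of 17. Nanos1 was the leading paralogue for knockdown, at 2.32 ± 0.23 CPM in F0_3NC and 1.5 ± 0.13 CPM in F0_5251KD (-0.63, SE 0.233, adjusted p 0.897). It was at 1.68 ± 0.43 CPM in F0_5NC and 1.75 ± 0.17 CPM in F0_5251OV, so F0_3NC was again the highest group. Nanos1 had the smallest p of the paralogues between the controls as well.

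The genes lie on 10 chromosomes of GRCm38 (mm10). Gdnf is on chromosome 15 from 7810048 to 7837580, Gfra1 on chromosome 19 from 58235581 to 58455946, Ret on chromosome 6 from 118151748 to 118197744 and Id4 on chromosome 13 from 48261116 to 48266028. The annotation places genes of the opposite strand over exons of Gfra1, Id4, Nanos2, Lin28a and Sall4, among them the antisense gene Gm16277 at Gfra1 and A330033J07Rik at Id4. These partners are not in the expression table, and the study's methods name no way of marking the strand, so reads of such a gene and of its partner cannot be told apart. Gdnf, Ret, Zbtb16 and Etv5 overlap no annotated gene. Nanos3 shares its locus with the microRNA genes Mir181c and Mir181d on the same strand, outside its exons.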

How the data were processed

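RNA of testes in 4 groups of 3 libraries was analysed. The authors selected polyadenylated RNA on oligo(dT) beads, primed cDNA randomly, read it on an Illumina sequencer and mapped it to reference genes with SOAPaligner (build mm10 per the submitters' processing notes). The authors deposited 1 table with an estimated count per gene and library, of which 12.0% are not whole (tolerance 1e-06), and an RPKM value per gene and library. Which tool estimated the counts is not stated in those sources. A further 18 columns of per-sample values belong to no sample of the series and were not used.

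Estimated counts were rounded and tested with edgeR 4.0.16 (R 4.3.3; TMM factors 0.97 to 1.08, filterByExpr, quasi-likelihood F test) in 1 fit of 12 libraries. Standard errors were derived from the fold change and its F statistic. The scripts were tested on simulated data. The gene set, the lists and the tests were chosen with earlier results of these data known, while the rule for the 10 genes uses symbols alone. All 10 genes are named, from each list the genes past the threshold or else that of smallest p, and for Gdnf, Gfra1 and Zbtb16 the 3 genes of highest correlation with a mean of at least 1 CPM. Alternatives were upper-quartile scaling, DESeq2 1.42.0, a filter of 1 CPM in 3 libraries or none, limma 3.58.1 on log2(RPKM + 1) and log2(RPKM + 0.1), a fit of the compared groups, a block for the replicate number, omission of each library, and counts summed per group after the study's methods (adjusted p of at most 0.001, absolute log2 ratio of at least 1). The smallest library total was 15431383, and precision is given by the intervals.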

Additional observations from a re-analysis of the deposited data

Results flagged for a closer look

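Id4 was the only one of the 10 genes whose fitted changes differed in direction between the comparisons with an unadjusted p under 0.05 for the difference. Every F0_5251KD library lay below every F0_3NC library, and every F0_5251OV library lay above every F0_5NC library. Groups failed to overlap in 11.8% of all genes tested for knockdown and in 13.9% for overexpression. The knockdown change of Id4 alone was -0.07 (unadjusted p 0.461, adjusted p 0.913 by edgeR). Id4 was flagged from these same values, so the test of the difference adds no separate support. The difference of the log2 fold changes was -0.27 (95% interval -0.54 to -0.01, unadjusted p 0.0434), and the adjusted p of 0.439 by edgeR's quasi-likelihood test did not pass the threshold. An unadjusted p under 0.05 was given to 11.3% of all genes for this difference. Over 19 alternatives it ran from -0.35 to -0.21, with adjusted p from 0.39 to 0.698. By DESeq2, upper-quartile scaling, the other filters, both limma fits and the replicate block, 0 genes of the set had an unadjusted p under 0.05 for it. Omission of F0_3NC replicate 1, F0_5NC replicate 3 or F0_5251OV replicate 3 gave 1, 2 and 1 such genes, and every other omission 0.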

How the results depend on the processing

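The count of the 10 genes called was 0 in all 64 alternative values. Of 570 alternative log2 fold changes of single genes, 521 kept their direction, 49 changed it and 0 passed the threshold, so the direction of small changes is not established. In F0_5251KD vs F0_3NC, Gfra1 was 0.00 by limma on log2(RPKM + 1), on log2(RPKM + 0.1) and with counts summed per group, where Sall4 was also 0.00. With summed counts Zbtb16 was -0.01 in F0_5251OV vs F0_5NC. On log2(RPKM + 1) and log2(RPKM + 0.1) Sall4 was 0.05 and 0.12 in F0_3NC vs F0_5NC, and -0.07 and -0.15 for the difference of effects. Causes of these changes were not tested.

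Leaving out 1 library gave these ranges where a direction changed. In F0_5251KD vs F0_3NC they were -0.35 to 0.05 for Gdnf, -0.13 to 0.06 for Gfra1, -0.09 to 0.31 for Ret, -0.03 to 0.09 for Etv5, -0.17 to 0.06 for Zbtb16, -0.17 to 0.16 for Sall4 and -0.17 to 0.06 for Lin28a. In F0_5251OV vs F0_5NC they were -0.30 to 0.07 for Gdnf, -0.10 to 0.01 for Etv5, -0.02 to 0.17 for Zbtb16, -0.26 to 0.15 for Sall4, -0.18 to 0.04 for Lin28a and -0.15 to 0.56 for Nanos3. In F0_3NC vs F0_5NC the range was -0.18 to 0.15 for Sall4. For the difference of effects they were -0.19 to 0.20 for Gdnf, -0.22 to 0.01 for Zbtb16, -0.17 to 0.24 for Sall4 and -0.10 to 0.13 for Lin28a. A group with 2 libraries left is assumed to vary like the others.

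With the replicate number as a block (replicate block), Id4 was 0.21 in F0_5251OV vs F0_5NC (adjusted p 0.635) and 0 genes of the set were called. Deviations of same-numbered libraries correlated between -0.17 and 0.07, so no shared effect of the number was seen. These correlations cannot settle whether the numbers pair the libraries. Over all genes, edgeR called 4 in F0_5251KD vs F0_3NC, DESeq2 20, limma 2 and 0, the block fit 2 and summed counts 143. In F0_5251OV vs F0_5NC it called 0, DESeq2 29, the fits with no filter and of the compared groups alone 3 each, and summed counts 191. In F0_3NC vs F0_5NC it called 54, DESeq2 131 and summed counts 307, and for the difference of effects 0, DESeq2 34 and limma 1. With 1 library left out these counts were 0 to 4, 0 to 1, 30 to 54 and 0 to 1. Id4 in F0_5251OV vs F0_5NC kept its direction over 15 alternatives (0.16 to 0.28, adjusted p 0.0241 to 0.987); the smallest adjusted p came from summed counts, which take no account of the spread between libraries, and its ratio was below that test's minimum. Depth limits Nanos2 and Nanos3 most.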

Other observations

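Genes with the profile most like that of 3 members were looked up over the 12 libraries (log2 CPM, 15166 genes whose mean reached 1 CPM). The correlations are a description of libraries that share scaling and groups. For Gdnf the closest were Hmgn1, Cfdp1 and Tmem62, each at r = 0.85. For Gfra1 they were Gm5681 at 0.92, Pank2 at 0.91 and 4930568D16Rik at 0.88. For Zbtb16 they were Zfhx4 at 0.91, Casc3 at 0.84 and AW209491 at 0.82. None of the other genes of the set was among them. Between members, Gfra1 and Id4 had the highest value, 0.69 over 12 libraries and 0.62 after the group means were removed, and Nanos3 and Lin28a the lowest, -0.76 and -0.73. Gdnf and Gfra1, ligand and co-receptor, were at -0.21, and Gfra1 and Ret at -0.38.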
